A study of Mus musculus with 21 samples.

Results

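The transcripts of 8 genes were followed in podocyte fractions of mouse kidney: the 3 cyclin-dependent kinase inhibitors of the CIP/KIP family (*Cdkn1a*, *Cdkn1b* and *Cdkn1c*), the 4 of the INK4 family (*Cdkn2a*, *Cdkn2b*, *Cdkn2c* and *Cdkn2d*) and *Trp53*. They were chosen by name as inhibitor families with their main upstream factor, and are 8 of the 27179 genes counted. All mice were male C57BL/6J. The 6 young mice were 4 months old and untreated. The study took control mice of this age from its tissue archive, and whether these 6 are among them is not given in the sources used here. The 7 saline mice and the 8 MCC950 mice were 19.5 months old (middle-aged) and received intraperitoneal injections for 6 weeks from 18 months of age, of saline alone or of 10 mg/kg MCC950, a small-molecule inhibitor of the NLRP3 inflammasome. No gene was deleted in any of these mice. Cells of the digested cortex that bound nephrin antibodies were held on magnetic beads, and each library came from 1 mouse. Age and the injections cannot be told apart in the comparison of young with saline mice.

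Cyclin-dependent kinases drive a cell from one phase of its cycle to the next, and the inhibitors bind and restrain them. INK4 proteins bind CDK4 and CDK6 and thereby keep the retinoblastoma protein active, while CIP/KIP proteins bind a wider range of cyclin-kinase complexes. The transcription factor p53, encoded by *Trp53*, is stabilized after DNA damage and induces *Cdkn1a*. Podocytes are cells that have left the cell cycle, and the proteins p27 and p57 (from *Cdkn1b* and *Cdkn1c*) are known markers of their quiescent state. The product p16Ink4a of *Cdkn2a* is widely used as a mark of senescent cells.

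The upstream sequences of the genes that the results turn on are shown for what they can and cannot tell about the counts. They are from RefSeq on GRCm38.p6, where 7 of the 8 genes, all but *Cdkn1c*, had 10 annotated start windows, each reaching from 250 bases before to 50 bases after the start. *Cdkn1a* (chr17:29090979-29100722, plus strand) is shown because it is a p53 target, and the capitals mark CATG, 6 further bases and CATG, a pair of p53 core motifs, in the bases chr17:29090891-29090978 just before its upstream start.

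Cdkn1a: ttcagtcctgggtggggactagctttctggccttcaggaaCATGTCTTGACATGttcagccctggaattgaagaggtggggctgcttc

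This pair, read on both strands, was found in 0.712% of the 32851 start windows of the mouse genome and in 1 of the 10 windows of these 7 genes. *Cdkn2a* (chr4:89274473-89294619, minus strand) is shown at both of its starts, which lie 12427 bases apart and give the unrelated proteins p19Arf (upstream start, chr4:89294620-89294719) and p16Ink4a (downstream start, chr4:89282193-89282292). Both transcripts share later exons, so that the gene's count does not separate them. The capitals mark GGGCGG, the GC box, which 35.7% of all windows hold on either strand. The window of the p16Ink4a start holds 1 GC box, which lies outside the 100 bases shown, so that its line has no capitals.

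Cdkn2a, p19Arf start: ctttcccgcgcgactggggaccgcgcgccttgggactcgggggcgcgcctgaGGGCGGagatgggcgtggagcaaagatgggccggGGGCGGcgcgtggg
Cdkn2a, p16Ink4a start: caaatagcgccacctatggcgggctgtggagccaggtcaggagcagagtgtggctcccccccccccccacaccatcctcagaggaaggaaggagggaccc

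*Cdkn2b* (chr4:89306289-89311032, minus strand) lies 11669 bases from *Cdkn2a* and encodes p15Ink4b. It is shown beside its neighbour as the INK4 gene that was lower with MCC950, and the capitals mark TGACGTCA, the cAMP response element, found in 1.79% of all windows. *Cdkn1b* (chr6:134920401-134925525, plus strand), the CIP/KIP gene that was lower with MCC950, has GGGCGG and CCAAT (the CCAAT box, in 37.4% of all windows) in capitals.

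Cdkn2b: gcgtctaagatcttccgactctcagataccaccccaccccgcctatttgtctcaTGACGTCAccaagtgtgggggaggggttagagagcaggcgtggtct
Cdkn1b: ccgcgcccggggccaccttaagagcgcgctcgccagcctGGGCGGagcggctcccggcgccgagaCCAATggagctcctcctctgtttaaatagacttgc

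The window of the upstream *Cdkn2a* start held 45 CpG dinucleotides and that of the downstream start 12. For *Cdkn1a* the window of the upstream start held 2 and that of the downstream start 23. The median of all windows was 7. A match of letters is a description of the sequence and shows no binding.

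The young libraries held 27375870 to 36827823 counts, the saline libraries 45772937 to 84876399 and the MCC950 libraries 35440472 to 58247271, and the mitochondrial genome took 51.5% to 80.4%, 63.0% to 79.2% and 49.9% to 63.7% of them. In this share 7 of 8 MCC950 libraries lay below every saline library, and with the mitochondrial genes left out the same 3 of the 8 genes were called between these groups. The saline libraries were all deeper than the young ones, and after thinning to equal depth *Cdkn1c*, *Cdkn2d* and *Trp53* kept their calls in saline against young libraries while *Cdkn2a* was too low to test. The mean log2 level of 15 podocyte markers, which include none of the 8 genes, ranged from 3.54 to 4.95 in young, from 1.84 to 3.17 in saline and from 2.69 to 3.72 in MCC950 libraries, and 1 marker, *Lmx1b*, had a count of 0 in 1 library. In saline against young libraries 14 of these 15 markers were lower, as were 8 of 9 endothelial, 6 of 8 mesangial and smooth muscle, 4 of 6 collecting duct and 2 of 6 loop of Henle and distal tubule markers, and 3 of 9 macrophage and myeloid markers, 3 of 6 T cell markers and 3 of 6 B and plasma cell markers were higher. Of all genes tested, 12.4% were lower and 12.2% higher in this comparison. In MCC950 against saline libraries 4 podocyte and 7 of 10 proximal tubule markers were higher, and 3 of 9 endothelial and 2 of 6 loop of Henle and distal tubule markers were lower. Here 11.9% of all genes tested were higher and 4.86% lower. Markers of all these cell types were present in every group, so the libraries are podocyte fractions rather than pure podocytes. In such bulk samples fewer cells of a type and less RNA per cell cannot be told apart.

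Levels are given in CPM, the count scaled to a common library size after TMM normalization, and differences as the log2 fold change fitted by edgeR with its standard error (SE) and its p adjusted over all 16377 genes tested. A gene is said to have risen or fallen where that adjusted p was under 0.05. All 8 genes passed the filter on low counts, but *Cdkn2a* only through its middle-aged libraries, the groups where it was high, so that it is left out of the counts that follow. In saline against young libraries 2 of the other 7 genes rose (*Cdkn2d* and *Trp53*) and 1 fell (*Cdkn1c*), where 24.6% of all genes tested were called, 12.2% higher and 12.4% lower. The groups did not overlap in 2 of the 7 genes (*Cdkn1c* and *Cdkn2d*), beside 9.37% of all genes. In MCC950 against saline libraries 1 rose (*Cdkn1c*) and 2 fell (*Cdkn1b* and *Cdkn2b*), where 16.8% of all genes were called, 11.9% higher and 4.86% lower, and the groups overlapped in each of the 7 genes, while 1.74% of all genes did not overlap. In MCC950 against young libraries 3 rose (*Cdkn2c*, *Cdkn2d* and *Trp53*) and 2 fell (*Cdkn1b* and *Cdkn1c*), where 38.3% of all genes were called, 21.8% higher and 16.5% lower. Here *Cdkn1b* and *Cdkn2d* did not overlap between the groups, beside 7.94% of all genes. The median log2 fold change of the 7 genes was 0.12, 0.04 and 0.14 in these comparisons, beside 0.02, 0.00 and 0.08 over all genes. The comparisons share libraries and are therefore given side by side.

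**Figure D1:**
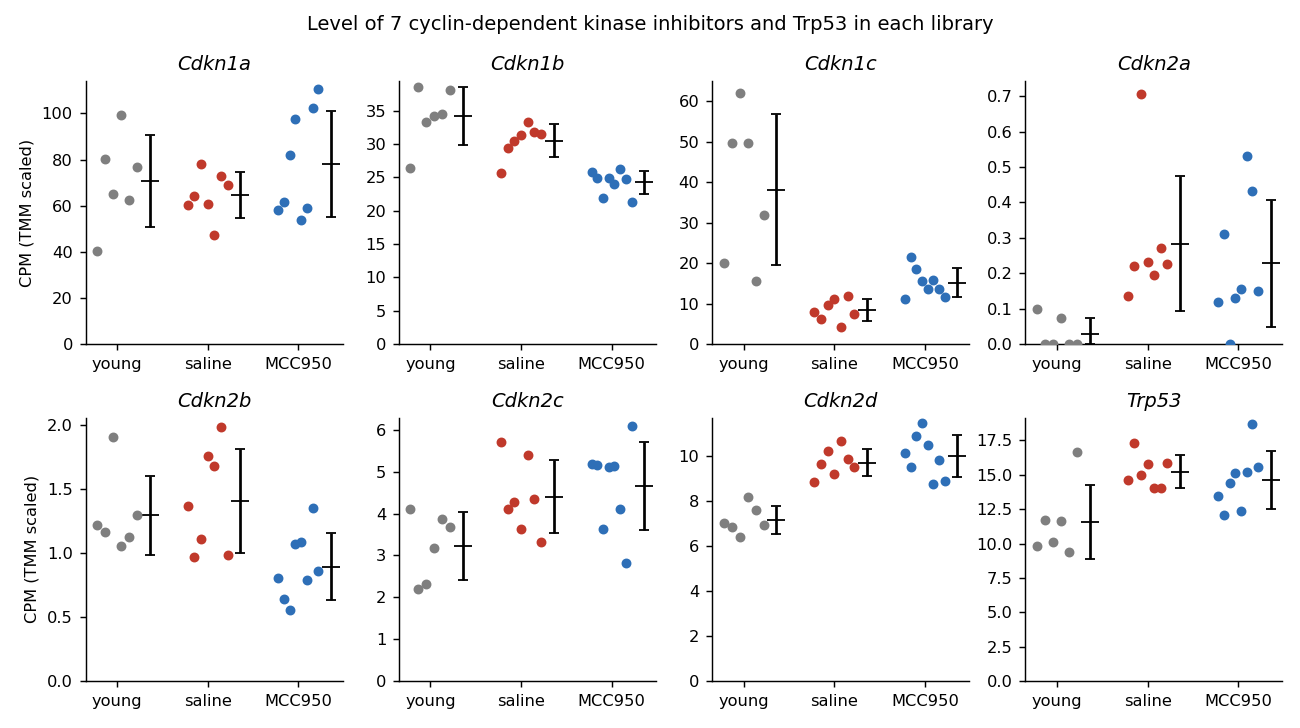
Level of each gene in CPM (vertical axes from 0) by group, where each point is 1 library and the bar is the mean with its SD (n = 6 young, 7 saline and 8 MCC950), cut at 0 for *Cdkn2a* in young libraries. The young *Cdkn1c* points (15.5 to 62.0 CPM) lie above all saline points (4.23 to 11.9 CPM), and the *Cdkn2d* points of both middle-aged groups lie above all young points.

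*Cdkn1c* encodes p57Kip2 and is imprinted, with expression from the maternal allele. Its lowest, median and highest levels were 15.5, 40.8 and 62.0 CPM in young, 4.23, 7.99 and 11.9 CPM in saline, and 11.1, 14.6 and 21.6 CPM in MCC950 libraries. The saline libraries all lay below the young ones, and 6 of 8 MCC950 libraries exceeded the highest saline value. *Cdkn1c* fell by 2.20 on the log2 scale in saline against young libraries (SE 0.28, adjusted p = 2.71e-05), which is a 4.58-fold lower level. It rose by 0.87 with MCC950 (SE 0.26, adjusted p = 0.0281) and was still lower than in young mice by a log2 fold change of -1.33 (SE 0.27, adjusted p = 0.000658). The rise with MCC950 lost its call when saline replicate 2, 5 or 7 or MCC950 replicate 3 was removed, with adjusted p between 0.0503 and 0.0608 in these fits and a lowest of 0.0274 when another library was left out.

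*Cdkn1c* varied with the podocyte markers. The library with the lowest podocyte marker level in each group (young replicate 5, saline replicate 5 and MCC950 replicate 1) also had the lowest *Cdkn1c* of its group. Set against the podocyte marker mean of the same library, log2 *Cdkn1c* was lower in saline than in young libraries by a difference of -0.33 (exact two-sided permutation test, p = 0.0291). The same difference was 0.42 for MCC950 against saline libraries (exact permutation test, p = 0.000932) and 0.09 for MCC950 against young libraries (exact permutation test, p = 0.405). Leaving *Nphs1*, the gene of the sorted antigen, out of the marker list gave -0.41, 0.47 and 0.06. With the podocyte marker mean as a covariate the log2 fold change of *Cdkn1c* was -0.06 in saline against young libraries (adjusted p = 0.913), and it was 0.34 in MCC950 against saline libraries (adjusted p = 0.0297), beside adjusted p of 4.56e-13 to 0.913 and of 0.00764 to 0.0389 over the 12 alternative settings. The marker means of young and saline libraries did not overlap, so that this covariate can hardly be told apart from the group. That fit called 14 of all 16377 genes in saline against young libraries.

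**Figure D2:**
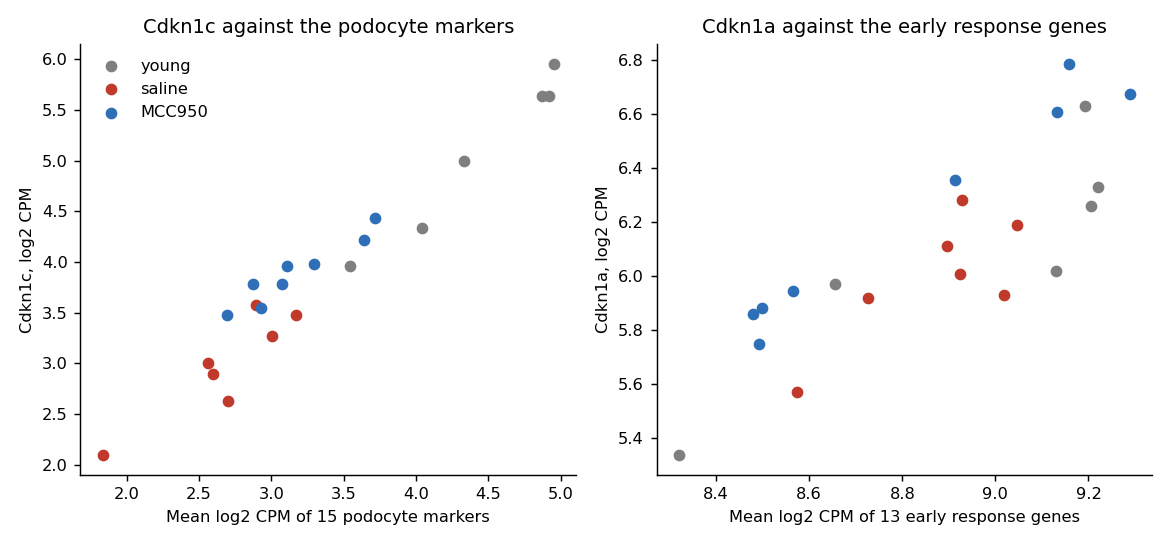
Left, log2 CPM of *Cdkn1c* against the mean log2 CPM of 15 podocyte markers; right, log2 CPM of *Cdkn1a* against the mean log2 CPM of 13 early response genes; each point is 1 of the 21 libraries, coloured by group. Young libraries (podocyte marker mean 3.54 to 4.95) lie to the upper right of saline libraries (1.84 to 3.17) on the left, while the groups are mixed on the right.

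*Cdkn1b* encodes p27Kip1. Its lowest, median and highest levels were 26.5, 34.3 and 38.6 CPM in young, 25.6, 31.4 and 33.2 CPM in saline and 21.3, 24.8 and 26.3 CPM in MCC950 libraries. The MCC950 libraries were all lower than the lowest young one, and 6 of 8 were lower than every saline library. *Cdkn1b* fell by 0.33 on the log2 scale with MCC950 against saline (SE 0.07, adjusted p = 0.00753) and had a log2 fold change of -0.49 against young (SE 0.08, adjusted p = 7.24e-05). Between saline and young libraries the log2 fold change was -0.16 (SE 0.08, adjusted p = 0.142), and without young replicate 1, the lowest young library, it passed the threshold (log2 fold change -0.23, adjusted p = 0.0253, in a range of 0.0253 to 0.258 when each library was left out). The call for MCC950 was kept without each library in turn, and was lost with the proximal tubule marker mean as a covariate (log2 fold change -0.23, adjusted p = 0.138, beside 0.000449 to 0.138 over the 12 alternatives). Of the 10 proximal tubule markers 7 rose with MCC950, beside 11.9% of all genes called higher. The marker means overlapped, at 7.12 to 8.44 in MCC950 and 6.42 to 7.68 in saline libraries, and no marker was at 0. The part of these markers in the *Cdkn1b* result was not tested further.

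*Cdkn1a* encodes p21Cip1, the inhibitor induced by p53. Its lowest, median and highest levels were 40.3, 70.7 and 99.1 CPM in young, 47.5, 64.4 and 77.9 CPM in saline and 53.7, 71.8 and 110 CPM in MCC950 libraries. The groups overlapped throughout and no comparison passed the threshold. The log2 fold change was -0.13 in saline against young libraries (SE 0.19, adjusted p = 0.68) and 0.27 in MCC950 against saline libraries (SE 0.18, adjusted p = 0.318). The lowest *Cdkn1a* levels of the young and saline groups, in young replicate 1 and saline replicate 5, stood in the libraries with the lowest mean of 13 early response genes of their groups (8.32 and 8.57), genes such as *Fos* and *Egr1* that cells induce within minutes of handling. In MCC950 libraries the lowest *Cdkn1a* was in replicate 5 (mean 8.49) and the lowest mean in replicate 1 (8.48). With that mean as a covariate *Cdkn1a* was called higher in MCC950 against saline libraries (log2 fold change 0.29, adjusted p = 0.0135), as with the proximal tubule mean (0.76, adjusted p = 0.0131), and the 12 alternatives ranged from 0.0131 to 0.639.

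*Cdkn2a* was near the limit of detection. Its counts in young replicates 1 to 6 were 4, 0, 0, 2, 0 and 0. In saline replicates 1 to 7 they were 7, 12, 30, 12, 16, 19 and 12, and in MCC950 replicates 1 to 8 they were 6, 14, 0, 9, 12, 29, 32 and 7. Every saline library was listed above every young library in CPM, while the MCC950 libraries spread from 0 to 0.531 CPM. A count of 0 allows up to 0.0968 to 0.168 CPM in the 4 young libraries and up to 0.0636 CPM in MCC950 replicate 3, where 3 counts are taken as the limit. The limit of 0.168 CPM, in young replicate 5, lies above the lowest saline library (0.136 CPM), so that a full separation of the groups was not settled at this depth. These limits cover counting error only.

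The fitted log2 fold change of *Cdkn2a* was 2.94 in saline against young libraries (SE 0.83, adjusted p = 0.0128; exact permutation test of the CPM, p = 0.00117, the smallest that 6 against 7 libraries allow). Against young libraries it was 2.67 in MCC950 libraries (SE 0.83, adjusted p = 0.0151), and between MCC950 and saline libraries it was -0.27 (SE 0.52, adjusted p = 0.756). Since the gene entered this fit through the groups where it was high, no p against young libraries is read as a call. This holds also for the fits that follow. The permutation test compared mean CPM, and its p is not read as support either. That p takes its smallest value through a full separation of the groups, which was not settled at this depth. Without the filter the adjusted p were 0.014 and 0.0161. Young replicate 1 held 4 of the 6 young counts, and without it the log2 fold changes against young libraries were 3.98 and 3.71 (adjusted p = 0.00914 and 0.00815). Beside 12.2% of all genes called higher, 3 of the 9 macrophage and myeloid markers rose in saline against young libraries. Their means overlapped, with 6.52 to 7.74 in saline and 4.75 to 6.99 in young libraries, and no marker was at 0. Saline replicate 3, with the highest *Cdkn2a* level (0.707 CPM), had the highest macrophage marker mean of its group (7.74), and MCC950 replicate 3, at 0 counts, had the lowest (5.71). MCC950 replicate 8 had a mean of 7.76 with only 7 counts. With that mean as a covariate the log2 fold change in saline against young libraries was 1.93 (adjusted p = 0.122, beside 0.00217 to 0.283 over the 8 alternatives that could test the gene). In the fits without saline replicate 3, 4 or 6 *Cdkn2a* did not pass the filter on low counts for saline against young libraries. The same held after thinning to equal depth and, without thinning, with only the 2 groups compared. It also held with at least 10 counts in every library and with the replicate number as a block. Without MCC950 replicate 2, 6 or 7 *Cdkn2a* did not pass for MCC950 against young libraries.

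*Cdkn2b* encodes p15Ink4b, an inhibitor induced by TGF-beta. Its lowest, median and highest levels were 1.06, 1.19 and 1.90 CPM in young, 0.970, 1.36 and 1.98 CPM in saline and 0.551, 0.831 and 1.35 CPM in MCC950 libraries. The young and saline libraries overlapped, and 5 of 8 MCC950 libraries were lower than every saline library. *Cdkn2b* fell by 0.65 on the log2 scale with MCC950 against saline (SE 0.20, adjusted p = 0.0325; exact permutation test of the CPM, p = 0.0131). The log2 fold change was 0.12 in saline against young libraries (SE 0.22, adjusted p = 0.736) and -0.53 in MCC950 against young libraries (SE 0.22, adjusted p = 0.0595). The call for MCC950 did not hold when saline replicate 4, 5 or 6 or MCC950 replicate 1, 2 or 3 was removed, with adjusted p of 0.0524 to 0.0793 in these fits and of 0.0122 as the lowest without another library. It was also lost in 4 of the 12 alternatives, after thinning (log2 fold change -0.75, adjusted p = 0.0723), with the podocyte mean (-0.62, adjusted p = 0.0526), with the proximal tubule mean (-0.52, adjusted p = 0.221) and with the replicate number as a block (-0.68, adjusted p = 0.0571), in a range of 0.0138 to 0.221. The difference between *Cdkn2b* and its neighbour *Cdkn2a* was not tested.

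*Cdkn2c* and *Cdkn2d* encode p18Ink4c and p19Ink4d. *Cdkn2d* levels had a lowest, median and highest of 6.39, 6.98 and 8.16 CPM in young, 8.83, 9.66 and 10.7 CPM in saline and 8.77, 9.98 and 11.4 CPM in MCC950 libraries. Every middle-aged library lay above every young library. *Cdkn2d* rose by a log2 fold change of 0.44 in saline against young libraries (SE 0.08, adjusted p = 0.000291) and by 0.48 in MCC950 against young libraries (SE 0.07, adjusted p = 5.19e-05), a 1.36-fold and a 1.40-fold higher level. It did not pass the test between the middle-aged groups (0.04, SE 0.07, adjusted p = 0.711). *Cdkn2d* was called in all 13 fits of saline against young mice that left out a library, with adjusted p of 0.000237 to 0.000869, and in 11 of 12 other alternatives. It was lost with the podocyte marker mean as a covariate (log2 fold change 0.35, adjusted p = 0.304, beside 3.57e-06 to 0.304 over the 12), as was the call of MCC950 against young libraries (0.42, adjusted p = 0.0622). With this covariate 14 of all 16377 genes were called in saline against young libraries, whose marker means did not overlap.

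*Cdkn2c* levels had a lowest, median and highest of 2.19, 3.42 and 4.11 CPM in young, 3.33, 4.29 and 5.71 CPM in saline and 2.83, 5.12 and 6.10 CPM in MCC950 libraries. The middle-aged libraries were higher in the median and overlapped with the young ones. The log2 fold change was 0.45 in saline against young libraries (SE 0.18, adjusted p = 0.0751), and *Cdkn2c* rose by 0.53 in MCC950 against young libraries (SE 0.18, adjusted p = 0.0232). That call was lost without young replicate 2, 3 or 4 (adjusted p = 0.0512 to 0.077, with a lowest of 0.0067 without another library), after thinning (log2 fold change 0.45, adjusted p = 0.0582), with the podocyte mean (0.02, adjusted p = 0.974) and with the proximal tubule mean (0.24, adjusted p = 0.290), beside a lowest of 0.0168 over the 12 alternatives. The difference between saline and young libraries passed without young replicate 1 (adjusted p = 0.0488), with the proximal tubule mean (0.0117) and with the replicate number as a block (0.0287), in a range of 0.0117 to 0.676 over the 12 alternatives.

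*Trp53* levels had a lowest, median and highest of 9.38, 10.9 and 16.7 CPM in young, 14.0, 14.97 and 17.3 CPM in saline and 12.0, 14.8 and 18.7 CPM in MCC950 libraries. All young libraries but replicate 6 (16.7 CPM) lay below all saline libraries. *Trp53* rose by 0.40 in saline against young libraries (SE 0.12, adjusted p = 0.018; exact permutation test of the CPM, p = 0.0105) and by 0.34 in MCC950 against young libraries (SE 0.12, adjusted p = 0.0256). Between MCC950 and saline libraries the log2 fold change was -0.06 (SE 0.11, adjusted p = 0.743). The call in saline against young libraries was lost without young replicate 3 or 5 or saline replicate 2 (adjusted p = 0.0589 to 0.0636, with a lowest of 0.00198 without another library) and with the podocyte (log2 fold change 0.50, adjusted p = 0.354) or macrophage marker mean as a covariate (0.22, adjusted p = 0.188, beside 0.00173 to 0.354 over the 12 alternatives). With the podocyte mean 14 of all 16377 genes were called in this comparison, where the podocyte means did not overlap. The call in MCC950 against young libraries held in 8 of 14 fits without a library and in 6 of 12 other alternatives. It was lost without young replicate 1, 2, 3, 4 or 5 or MCC950 replicate 7 (adjusted p = 0.0519 to 0.101), with DESeq2 size factors, with only the 2 groups compared, after thinning, with the podocyte or macrophage mean and with the replicate number as a block (adjusted p = 0.0527 to 0.297). Reads of *Trp53* and of its processed pseudogene *Trp53-ps* on chromosome 17 may not be separated by the counting.

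**Figure D3:**
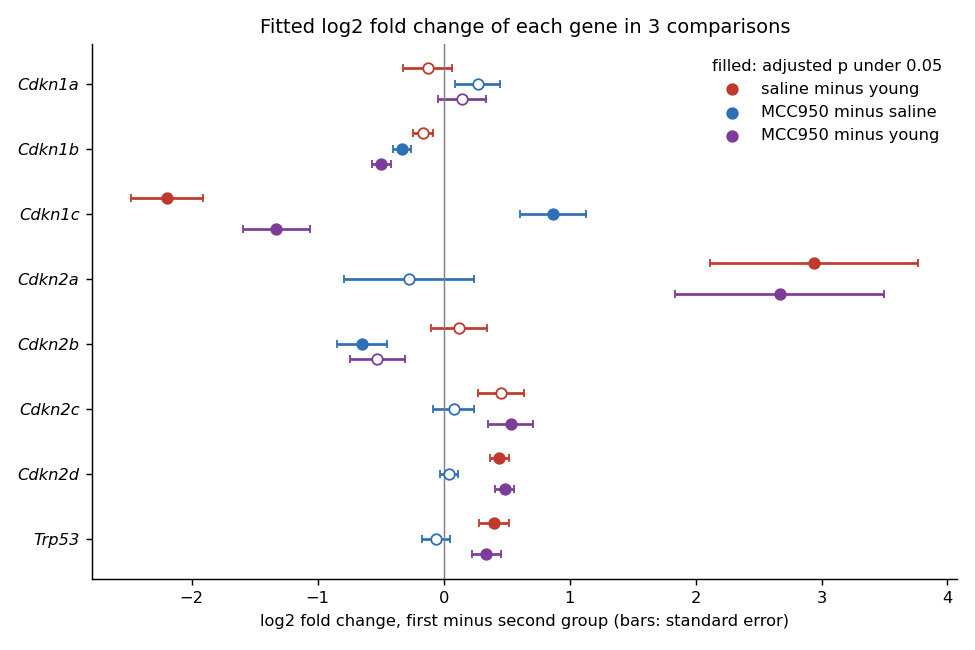
Fitted log2 fold change (horizontal axis) with its SE for the 8 genes in the 3 comparisons, where filled points have an adjusted p under 0.05. *Cdkn1c* (-2.20) and *Cdkn2a* (2.94) lie farthest from 0 in saline against young libraries, where *Cdkn2a* passed the filter only through the middle-aged libraries, and *Cdkn1b*, *Cdkn1c* and *Cdkn2b* are filled for MCC950 against saline.

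Per kilobase of exon, on the RPKM scale (CPM divided by the exon length in kilobases), the order of the levels differed between the groups. In young libraries *Cdkn1c* (median 20.01) and *Cdkn1a* (19.9) were highest and overlapped, followed by *Cdkn1b* (7.54). *Cdkn2d* (4.43) and *Trp53* (2.69) came next and overlapped, as did *Cdkn2c* (1.28) and *Cdkn2b* (0.856), and *Cdkn2a* was lowest. In saline libraries *Cdkn1a* (18.1) stood alone, and *Cdkn1b* (6.90), *Cdkn2d* (6.14), *Cdkn1c* (3.92) and *Trp53* (3.70) overlapped each with the next. In MCC950 libraries *Cdkn1a* (20.2) was again alone, and *Cdkn1c* (7.17), *Cdkn2d* (6.34) and *Cdkn1b* (5.44) overlapped. By median *Cdkn1c* therefore stood at place 1 in young, place 4 in saline and place 2 in MCC950 libraries. It overlapped with the next gene in each group, and by mean it stood below *Cdkn1a* in young libraries (18.7 beside 19.9).

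Among all genes tested, those most like each member were taken as the 3 with the smallest root mean square difference of standardized log2 CPM over the 21 libraries, where 0 would be the same pattern and the median over all genes was 1.32 to 1.47. For *Cdkn1c* they were *Wt1* (0.242), the podocyte transcription factor, *Rab3b* (0.243) and *Aplp1* (0.245). For *Cdkn1a* they were *Sbno2* (0.43), *Csrnp1* (0.459) and *Fosl2* (0.465), and for *Trp53* they were *Nfkb2* (0.381), *Panx1* (0.439) and *Relb* (0.448). *Nfkb2* and *Relb* encode subunits of NF-kappaB. The nearest genes were *Pkn3* for *Cdkn1b* (0.475), *Igkv4-63*, an immunoglobulin segment, for *Cdkn2a* (0.492), *Nsun6* for *Cdkn2b* (0.682), *Otub1* for *Cdkn2c* (0.474) and *Rpl31-ps11* for *Cdkn2d* (0.446). With deviations from the group means in place of the levels, 2 of the 3 genes were the same for *Cdkn1c*, 1 for each of *Cdkn1a*, *Cdkn2a*, *Cdkn2c* and *Trp53*, and 0 for *Cdkn1b*, *Cdkn2b* and *Cdkn2d*. The libraries share depth and cell content, and no test was made.

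Of 24 target genes of p53, 3 were higher and 3 lower in saline against young libraries, near the 12.2% and 12.4% of all genes. Their median log2 fold change was -0.03, and DESeq2 called 9 of the 24, beside 4626 of all 16377 genes. *Bax*, a promoter of apoptosis, rose by 0.48 (SE 0.10, adjusted p = 0.00235) and *Trp53inp1* rose by 0.66 (SE 0.17, adjusted p = 0.00753). *Rrm2b*, a ribonucleotide reductase subunit, fell (-0.43, SE 0.09, adjusted p = 0.00129), as did the death receptor *Fas* (-0.58, SE 0.13, adjusted p = 0.00342). In MCC950 against saline libraries *Gadd45a* (0.61, adjusted p = 0.025) and *Aen* (0.37, adjusted p = 0.0275) rose and *Trp53inp1* fell (log2 fold change -0.63, SE 0.16, adjusted p = 0.012), so that 3 of 24 changed, beside 16.8% of all genes. In MCC950 against young libraries 3 were higher and 4 lower, beside 38.3% of all genes called. Of 12 regulators of p53, *Rchy1* rose (0.23) and *Hipk2* fell (-0.51) in saline against young libraries, beside 12.2% and 12.4% of all genes. *Ppm1d*, a phosphatase of p53, fell with MCC950 against saline (-0.18, SE 0.06, adjusted p = 0.0472). It was the 1 of the 12 called there, beside 16.8% of all genes.

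Of 12 cyclin-dependent kinases and cyclins, *Cdk2* (0.40, adjusted p = 0.00246) and *Cdk4* (0.29, adjusted p = 0.0169) rose in saline against young libraries, where 24.6% of all genes were called. With MCC950 against saline, where 16.8% of all genes were called, edgeR called 0 of them and 3 had an unadjusted p under 0.05. DESeq2 called 1, beside 3450 of all 16377 genes. Of 13 pocket proteins and E2F factors, *E2f2* rose (0.68) and *E2f6* fell (-0.36) in saline against young libraries, beside 24.6% of all genes called. *Rb1*, the retinoblastoma gene, fell with MCC950 against saline (-0.32, SE 0.09, adjusted p = 0.0248). It was the 1 of the 13 called there, beside 16.8% of all genes. The median log2 fold change in saline against young libraries was 0.23 and -0.08 for these lists, beside 0.02 over all genes.

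Of 16 genes that act upstream of the inhibitors, 4 rose and 4 fell in saline against young libraries, beside 12.2% and 12.4% of all genes. The Polycomb gene *Bmi1* fell (-0.54, SE 0.08, adjusted p = 8.56e-05), as did *Id1* (-0.95, SE 0.18, adjusted p = 0.000792). *Skp2*, which directs p27 to degradation, rose (0.95, SE 0.22, adjusted p = 0.00329), as did the Polycomb gene *Cbx7* (0.44, SE 0.10, adjusted p = 0.00394). In MCC950 against saline libraries *Cbx7* fell (-0.37, SE 0.10, adjusted p = 0.0142) and was the 1 gene called, beside 16.8% of all genes. In MCC950 against young libraries 2 of the 16 were higher and 4 lower, beside 21.8% and 16.5% of all genes. Among the lower ones were *Bmi1* (-0.63, adjusted p = 6.43e-06) and *Id1* (-1.24, adjusted p = 2.77e-05).

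Of 11 other senescence markers tested, *Lmnb1* (lamin B1, which is lost in senescent cells) rose by 0.70 (SE 0.16, adjusted p = 0.00349) and *Igfbp5* had a log2 fold change of -1.10 (SE 0.17, adjusted p = 0.000101) in saline against young libraries, the 2 called beside 24.6% of all genes. With MCC950 against saline 3 rose, *Igfbp7* (0.49), *Cxcl1* (0.73) and *Glb1* (0.50), which encodes the lysosomal beta-galactosidase, and *Igfbp3* fell (-1.30, SE 0.26, adjusted p = 0.00379), beside 11.9% and 4.86% of all genes. Of 10 proliferation genes 4 rose in saline against young libraries, beside 12.2% of all genes. Among them were *Mki67* (0.79, adjusted p = 0.0256) and *Mcm5* (0.74, adjusted p = 0.0106). With MCC950 against saline edgeR called 0 of them, beside 16.8% of all genes, and DESeq2 called 0, beside 3450 of all 16377 genes. An unadjusted p under 0.05 was found in 0 with edgeR and in 1 with DESeq2. In saline against young libraries 3 of 6 T cell and 3 of 6 B and plasma cell markers also rose, and their part in these values was not tested.

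Of 7 imprinted neighbours of *Cdkn1c* tested, edgeR called 0 in saline against young libraries, where *Cdkn1c* itself fell, beside 24.6% of all genes. DESeq2 also called 0, beside 4626 of all 16377 genes. An unadjusted p under 0.05 was found in 1 with edgeR and in 2 with DESeq2. With MCC950 against saline *Slc22a18* (0.94, SE 0.25, adjusted p = 0.016) and *Phlda2* (0.98, SE 0.29, adjusted p = 0.0275) rose, as *Cdkn1c* did, beside 11.9% of all genes called higher. Of 10 proximal tubule markers 7 rose in the same comparison, as did 4 of 15 podocyte markers, and their part in these values was not tested. Counts at *Cdkn1c* (chr7:143458339-143461059, minus strand) may include reads of an overlapping antisense transcript, since the strand setting of the counting is not given in the sources used here.

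**Figure D4:**
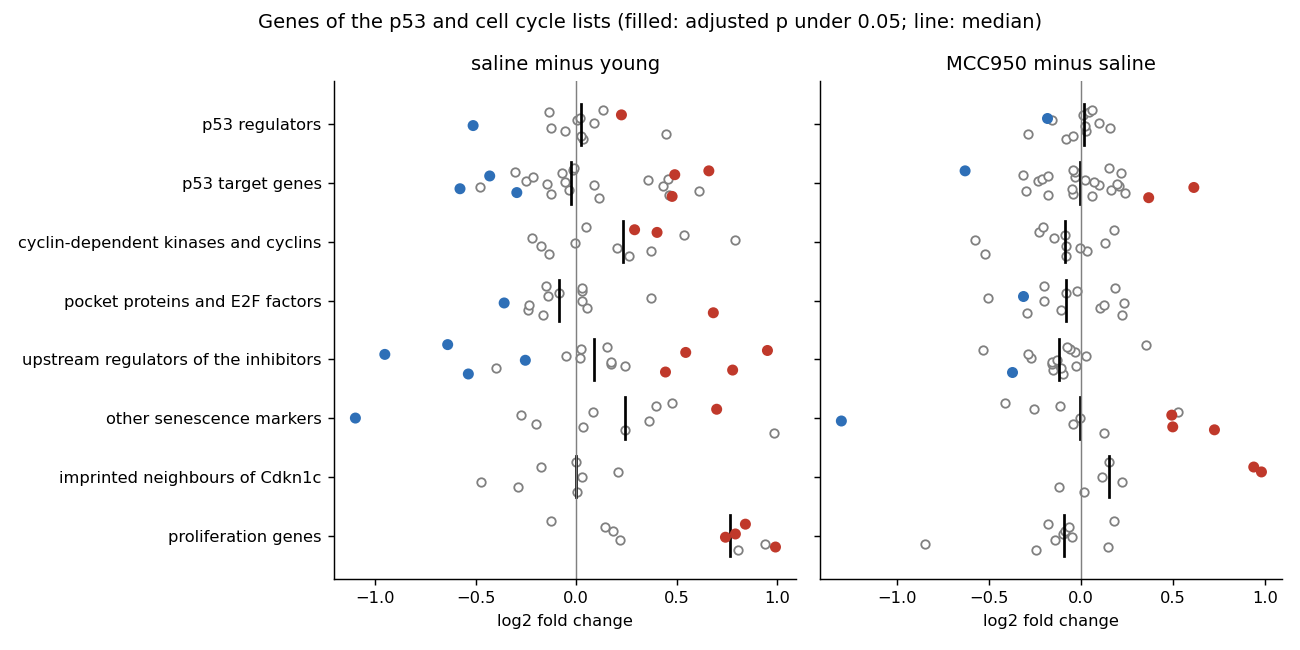
Log2 fold change of each tested gene of 8 lists in saline against young (left) and MCC950 against saline libraries (right), with filled points for an adjusted p under 0.05 (red higher, blue lower) and a black line at the median of each list. The 24 p53 target genes lie on both sides of 0 in both panels (3 higher and 3 lower on the left, 2 higher and 1 lower on the right).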

How the data were processed

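Bulk mRNA of podocyte fractions was measured in 21 libraries, grouped by their labels. The authors used Trim Galore for trimming, Bowtie2 for alignment to mm10 and featureCounts for gene-level counting. The annotation, the strand setting and the handling of reads with several alignments are not given in the sources used here. The deposited tables hold whole read counts for 27179 genes, of which 25275 were named through RefSeq. The signal values of the authors' normalized table are the same counts divided by 1 size factor per library for 20 libraries, and saline replicate 6 has no column. They were used as an alternative scale.

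The main test was that of edgeR 4.0.16 under R 4.3.3 (normalization by TMM, filterByExpr by group, quasi-likelihood F test, Benjamini-Hochberg over 16377 genes), with the 3 groups in one fit. An adjusted p under 0.05 was called. An SE is the log2 fold change over the root of its F statistic. Single genes were compared with exact two-sided permutation tests (scipy 1.17.1). Marker means are mean log2 CPM (prior count 2). RPKM used merged GENCODE exons. DESeq2 1.42.0 and the other 11 alternatives, and fits without each of the 21 libraries, are in the closing section. The fit was also run on simulated counts, and that run is not used as support for any result here. The members and lists were chosen with earlier results of these data known. Named genes are the 8 members, up to 4 called genes of smallest adjusted p in each list, and the 3 nearest genes of each member. Mice, not members, are the replicates.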

Additional observations from a re-analysis of the deposited data

Results flagged for a closer look

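In 24 groups of 6 to 8 libraries (8 genes in 3 groups) the gap between the most extreme library and its neighbour was compared with Dixon's limit, and 3 passed, where chance gives about 5% of groups. *Cdkn2a* in saline replicate 3 was at 0.707 CPM, while the next library was at 0.271 CPM. *Cdkn2b* in young replicate 3 was at 1.90 CPM, while the next was at 1.30 CPM. *Trp53* in young replicate 6 was at 16.7 CPM, while the next was at 11.7 CPM. Without young replicate 6 the log2 fold change of *Trp53* in saline against young libraries was 0.52 (edgeR adjusted p = 0.00198), and in the fit without saline replicate 3 *Cdkn2a* did not pass the filter on low counts.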

How the results depend on the processing

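Of 324 results recomputed without 1 library, 298 kept their direction and side of the threshold, 22 lost a call, 3 gained one and 1 turned direction. Over the other alternatives these numbers were 235, 24, 8 and 11 of 278. *Cdkn2a* is included in the next counts where it passed the filter, but against young libraries it is not read as a call. Without each library in turn 3 to 6 of the 8 genes were called in saline against young libraries, beside 2991 of 16511 to 4673 of 16518 genes. *Cdkn2a* was counted among the 3 to 6 in 10 of these 13 fits. In MCC950 against saline libraries 1 to 3 were called, beside 1523 of 16320 to 3295 of 16319 genes. The number was 1 without saline replicate 5 or without MCC950 replicate 3. In MCC950 against young libraries 4 to 6 were called, with *Cdkn2a* counted in 11 of 14 fits, where the main fit called 38.3% of all genes. With the podocyte marker mean as a covariate edgeR called 0 in saline against young libraries (14 genes in all), and 2 of the 8 had an unadjusted p under 0.05. In MCC950 against young libraries it called 0 (316 genes in all), and 4 of the 8 had such a p. DESeq2 without a covariate called 4 in saline against young libraries, *Cdkn2a* among them, beside 4626 of all 16377 genes. It called 7 in MCC950 against young libraries, where edgeR without a covariate called 38.3% of all genes. The marker means of young and saline libraries did not overlap. With the macrophage mean 2 of the 8 were called in saline against young libraries, beside 3390 of 16377 genes. After thinning to equal depth 3 were called in MCC950 against young libraries, where the main fit called 38.3% of all genes. The cause was not tested.

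Directions turned as follows. In saline against young libraries the podocyte mean gave log2 fold changes of 0.42 for *Cdkn1a*, -0.0080 for *Cdkn2b* and -0.26 for *Cdkn2c*, and on the authors' scale the *Cdkn2b* difference was -0.344. In MCC950 against saline libraries the proximal tubule mean gave 0.34 for *Cdkn2a*, -0.30 for *Cdkn2c* and 0.17 for *Trp53*, thinning gave -0.11 for *Cdkn2d*, and leaving out each library gave -0.0023 (without saline replicate 1) to 0.067 for *Cdkn2d*. In MCC950 against young libraries the macrophage mean gave -0.066 for *Cdkn1a* and the podocyte mean gave 0.28 for *Cdkn1c*. None of these turned values was called on either side except the fall of *Cdkn1c* against young libraries.

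The groups share replicate numbers, but libraries of the same number correlated only from -0.061 to 0.35, -0.14 to 0.33 and -0.013 to 0.40 in the 3 comparisons, so the numbers were not taken as pairs. With the replicate number as a block 4 of 7 genes tested were called in saline against young libraries, with *Cdkn2c* gained, beside 3532 of all 15579 genes. In MCC950 against saline libraries 2 of 8 were called, with *Cdkn2b* lost, beside 2386 of all 16156 genes. In MCC950 against young libraries 4 were called, without *Trp53*, where the main fit called 38.3% of all genes. *Cdkn2c* (-0.019, MCC950 against saline) and *Cdkn1a* (-0.073, MCC950 against young) changed direction without a call. *Cdkn2a* failed the filter on low counts against young libraries in this fit. Depth limits *Cdkn2a* most, with 0 to 4 counts in young libraries.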
